A study of Mus musculus with 39 samples.

Results

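The miR-181 family was followed through the first days of differentiation of mouse embryonic stem cells (ESCs). Its 4 main strands on the microarray, mmu-miR-181a, miR-181b, miR-181c and miR-181d, were taken by name from the 650 mouse miRNAs the array measured. The family was picked with its total signals and detection flags over all the arrays already known, so its levels and differences are given as a description, with no test. The cells were TCL-1, a line of ESCs from 129/SvJae mice that had been grown on mouse embryonic fibroblast feeders, and the feeders were removed on gelatin before differentiation. All differentiated groups, controls included, were grown on collagen in RPMI 1640 medium with B27 supplement and a sodium salt. The paper's methods name this salt sodium butyrate, and its over-expression protocol spells it "sodium byruate". Which compound was used was not settled. Controls received no growth factor, and the other groups received Wnt3a at 50 ng/ml, Activin A at 100 ng/ml, or both factors together at these doses. RNA was collected after 1, 3 or 5 days, and undifferentiated ESCs made up a group of their own. There were 3 arrays in each of the 13 groups, 39 in all. The question behind the design is which miRNAs change as ESCs turn into definitive endoderm, the germ layer of gut, liver and pancreas, which Activin A is used to induce.

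A microRNA (miRNA) is a short RNA that guides the silencing complex to messenger RNAs, and bases 2 to 8 from its 5′ end, the seed, do most of the pairing with a target. It is cut from a hairpin with 2 arms: the main strand is kept, and the other arm, written with a star, is mostly lost. The miR-181 miRNAs are known for roles in lymphocyte development and in the differentiation of muscle and nerve cells.

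The mature sequences show what the array had to tell apart. They are printed 5′ to 3′ from RefSeq (GRCm38.p6), with the seed in capitals.
mmu-miR-181a: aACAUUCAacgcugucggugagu
mmu-miR-181b: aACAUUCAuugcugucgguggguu
mmu-miR-181c: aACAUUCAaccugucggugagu
mmu-miR-181d: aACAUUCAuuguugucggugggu
All 4 carry the seed ACAUUCA, and of the 1679 mature miRNA names in that RefSeq table these 4 were the ones that did. Counted from 1 at the 5′ end, miR-181b differed from miR-181a by A9U, C10U and A21G and by 1 more base at its 3′ end. The sequence of miR-181c is that of miR-181a without base 11. miR-181b and miR-181d differed by C12U and 1 end base, with 22 bases identical. Signal from one of these RNAs on the probes of another was not tested.

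The genes lie in 3 clusters. Mir181a-1 and Mir181b-1 give their main strands from the plus strand of chromosome 1, at chr1:137966468-137966490 and chr1:137966650-137966673 (GRCm38.p6), 159 bases apart. On the plus strand of chromosome 2, the main strands of Mir181a-2 and Mir181b-2 lie at chr2:38852741-38852763 and chr2:38853845-38853868, 1081 bases apart. These chromosome 2 hairpins fall within the spans of the protein-coding gene Nr6a1, a nuclear receptor, and of the long non-coding RNA Nr6a1os. The main strands of miR-181c (chr8:84178924-84178945) and miR-181d (chr8:84178759-84178781) lie 142 bases apart on the minus strand of chromosome 8. The chromosome 1 and 8 hairpins overlapped no other annotated gene. Since miR-181a and miR-181b each come from 2 loci with the same mature sequence, the array could not say which locus a signal came from.

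Each miRNA was read by 2 probes. The scanner software's total signal for a miRNA is the sum of those probes it counted as detected, so a total steps up when the other probe is counted too. An array on which neither probe was counted was listed at 0.1, and is called undetected here. Levels below are totals in intensity units of the scanner unless they are called normalized. Normalized levels are log2 of the total after quantile normalization over all arrays, with a floor of 2, so that an undetected array stands at 1. Between 183 and 375 miRNAs were detected per array. Background was 35 to 42 intensity units, and no array had a saturated probe. The lowest normalized signal of a detected miRNA, after the floor of 2, was 12.3 to 34.4 per array in ESCs and at day 1. It was 2 to 11.3 at days 3 and 5, so a step from undetected to just detected was wider on the log2 scale at day 1. The number of arrays, 3 per group, limits the precision, and since the labels do not name separate cultures, p-values measure only the spread between these samples. Values from different probes were not compared between miRNAs. The ESC miRNAs of the miR-290 cluster, checked as markers of the labelled cells, were detected on every ESC array except miR-291b-5p, which was undetected on all 3.

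**Figure D1:**
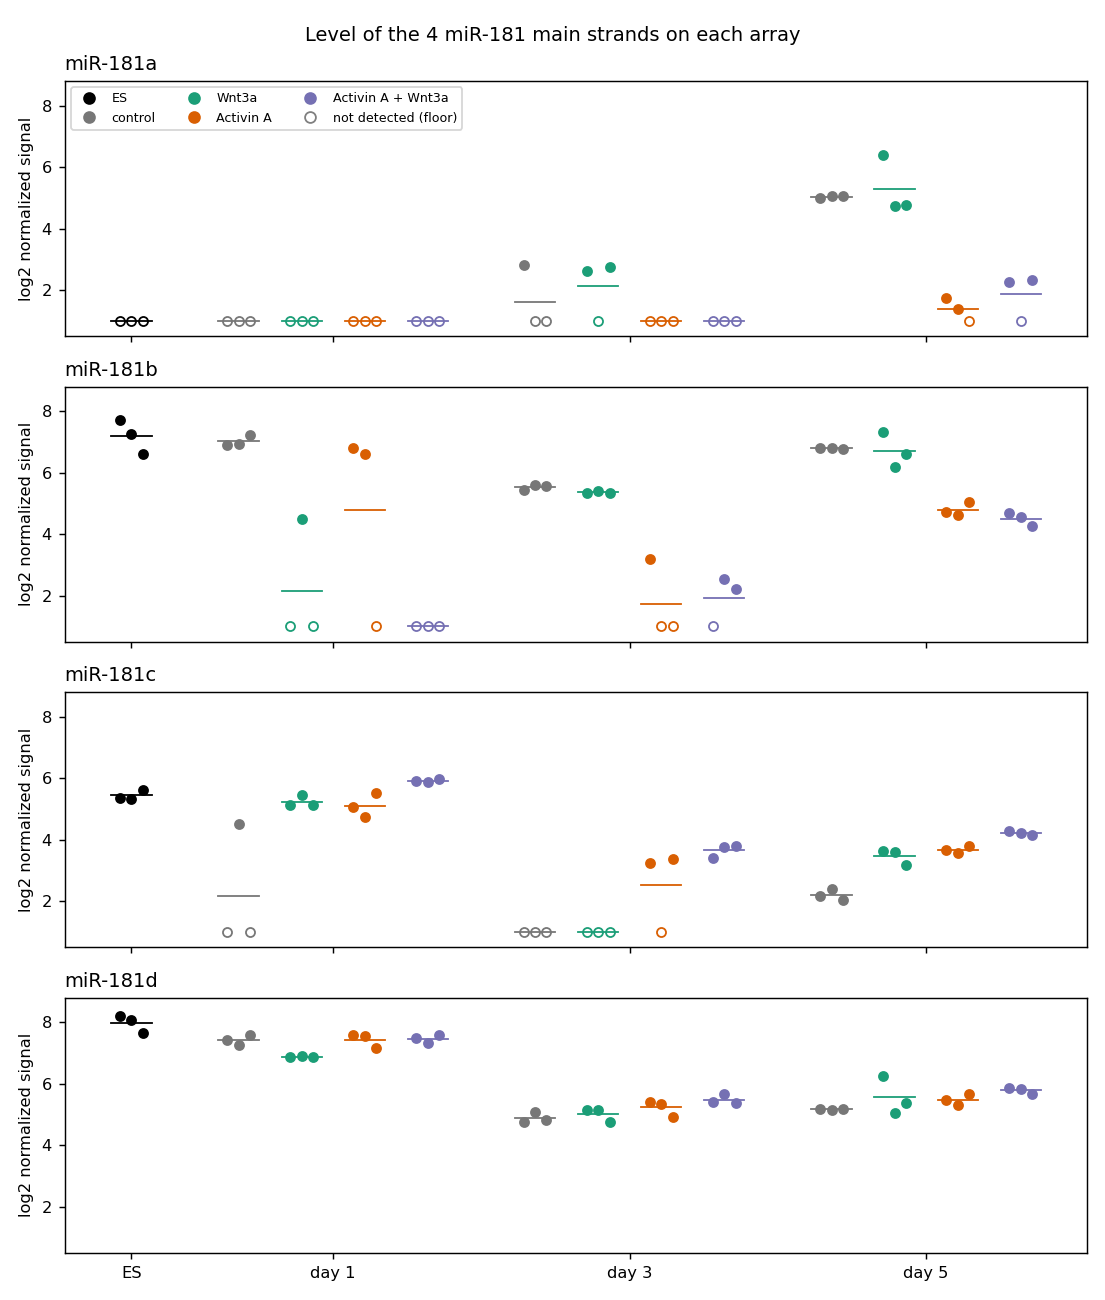
Normalized log2 level (vertical axis, quantile normalized, floor at 1) of each of the 4 main strands in every array of the 13 groups (horizontal axis); points are arrays, open points undetected ones, and horizontal lines are group means. miR-181a was detected mainly in control and Wnt3a cells at day 5, while miR-181d was detected on all 39 arrays.

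miR-181a was detected late, where the lowest detected normalized signals were also lower, and was lower in cells given Activin A. It was undetected on all 3 arrays of ESCs and of every day 1 group. At day 3 it was counted on control array 1 alone, at 8.28, and on 2 of 3 Wnt3a arrays, at 8.77 and 9.58. At day 5 the control arrays read 44.6, 46.6 and 48.1. Wnt3a arrays read 71.7, 70.7 and 53.7. Activin A arrays read 10.71 and 8.41 with the last undetected, and Activin A plus Wnt3a arrays read 9.22, undetected and 7.94. All control and Wnt3a arrays of day 5 thus lay above all Activin A and Activin A plus Wnt3a arrays. From day 3 to day 5 the normalized level in control cells rose from 1.6 ± 1.04 (SD, n = 3, 1 array detected) to 5.04 ± 0.03 (n = 3), a difference of 3.44 (SE 0.43) on the log2 scale. On the brighter probe alone that rise was 1.66, or 3.17-fold. From day 1 to day 3 in controls this probe differed by 0.76. Its normalized arrays overlapped between these days, and its raw values did not. Against day 5 controls, the normalized difference of the totals was -3.66 (SE 0.49, 2 of 3 arrays detected) with Activin A, -3.18 (SE 0.49, 2 of 3) with both factors and 0.26 (SE 0.49) with Wnt3a alone. The Wnt3a arrays of day 5 differed in overall brightness, with a 75th percentile of the totals of 349, 709 and 480, so that raw totals of 71.7 and 70.7 on the first pair became normalized levels of 6.40 and 4.72.

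The brighter miR-181a probe also separated the groups at day 3, where most totals were undetected. It read 8.28, 9.60 and 6.97 on the control arrays and 8.77, 8.25 and 9.58 on the Wnt3a arrays. On the Activin A arrays it read -0.14, 0.43 and 1.16, and with both factors it read 1.85, 1.39 and 1.63. Control and Wnt3a arrays overlapped, and both lay above every array with Activin A. On the normalized scale of this probe, floored at the same value, the difference from control was -1.95 for both groups given Activin A, whose arrays all stood at the floor. At day 5 it was -2.11 and -2.10, which is 4.30-fold and 4.28-fold lower. The arrays of these groups did not overlap at day 3 or day 5 on this probe.

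miR-181b, too, was lower with Activin A than without it at days 3 and 5, but it was present from the start. ESC arrays read 110.1, 64.3 and 44.7, and day 1 controls read 50.9, 66.4 and 69.0. Untreated cells at day 3 read 44.1, 49.1 and 48.7, and at day 5 they read 131, 134 and 136. In untreated cells the normalized level stood at 7.19 ± 0.55 (SD, n = 3) in ESCs, 7.02 ± 0.17 at day 1, 5.53 ± 0.09 at day 3 and 6.79 ± 0.02 at day 5. On this scale ESC and day 1 arrays overlapped, while day 3 arrays lay below both and day 5 arrays lay between day 3 and day 1. The order depends on the normalization: on the totals, day 5 arrays lay above all the others, and day 3 arrays overlapped those of ESCs. The 75th percentile of the totals was 162, 195 and 169 on day 1 control arrays and 433, 411 and 429 at day 5.

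Cells given Activin A had less miR-181b signal at day 3. The 3 Wnt3a arrays read 53.2, 52.8 and 54.7, close to the control arrays. With Activin A the first array read 8.69 and the others were undetected. With both factors the arrays read undetected, 7.89 and 8.63. The normalized difference from control was -3.81 (SE 0.57, 1 of 3 arrays detected) with Activin A, -3.62 (SE 0.57, 2 of 3) with both factors and -0.18 (SE 0.57) with Wnt3a alone. On the brighter probe alone the first pair of differences was smaller, -1.91 and -2.18, or 3.75-fold and 4.52-fold lower, and the arrays still did not overlap.

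At day 5 miR-181b was above detection on every array. Controls read 131, 134 and 136, and Wnt3a arrays read 153, 168 and 149. Activin A arrays read 48.6, 42.0 and 53.7. Arrays with both factors read 47.9, 36.9 and 30.3. Each array with Activin A lay below each array without it. The normalized difference from control was -1.99 (SE 0.26, n = 3 and 3), or 3.98-fold lower, with Activin A, and -2.28 (SE 0.26), or 4.86-fold lower, with both factors. It was -0.08 (SE 0.26) with Wnt3a alone. Activin A with and without Wnt3a overlapped, with a difference of -0.29 (SE 0.26). Both probes were counted on all of these arrays, and the brighter probe alone gave -1.91 and -2.07.

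Summed neural miRNAs were also lower with Activin A than without it. The 4 listed markers, miR-124, miR-9, miR-9* and miR-219, had a summed normalized signal of 747 to 980 on day 5 control arrays and 723 to 1835 with Wnt3a, against 77.7 to 87.5 with Activin A and 35.0 to 40.2 with both factors. At day 3 the sums were 180.9 to 244, 199 to 227, 94.7 to 97.7 and 41.4 to 49.9 in the same order of groups. All 4 were detected on every control array of day 5, and 2 of 4 on every array with both factors. The order of Activin A alone and both factors rests on the scanner files' labels. miR-219, from glial and neural tissue, was undetected in both Activin A groups at day 3. Not every marker went that way: with Activin A alone at day 3 the normalized level of miR-9 was 5.86 ± 0.06 (SD, n = 3) against 5.27 ± 0.10 in controls. That of miR-9* was 4.52 ± 0.05 against 2.53 ± 1.33, with 2 of 3 control arrays detected. The part of neural cells in the miR-181a and miR-181b values was not tested. In bulk RNA, fewer cells of a type and less RNA per cell cannot be told apart.

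**Figure D2:**
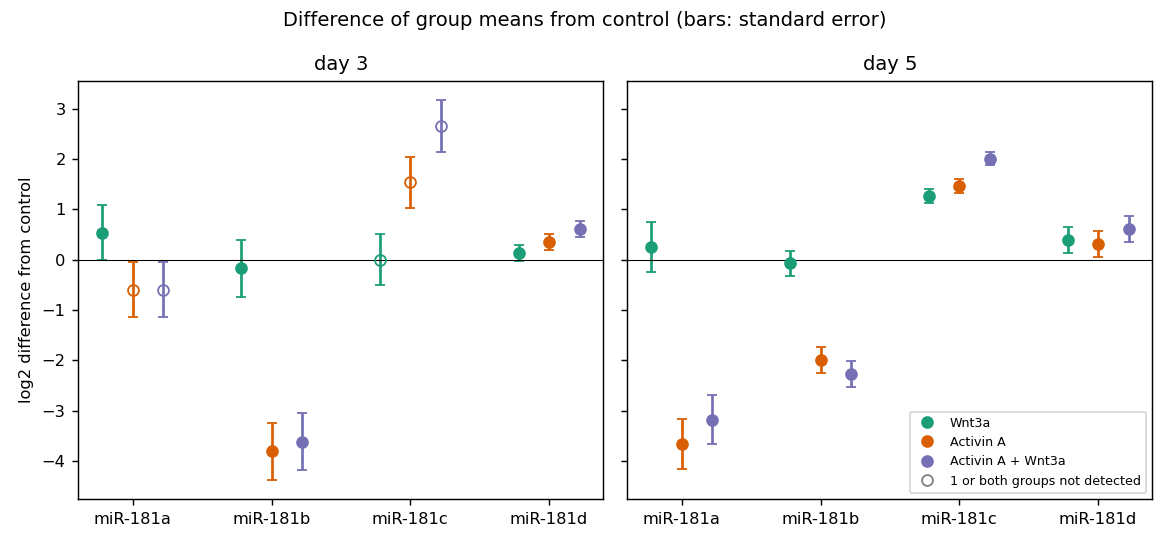
Normalized log2 difference from the control of the same day (vertical axis) for each main strand (horizontal axis) and treatment (colour) at days 3 and 5; points are differences of group means of 3 arrays, open where a group was undetected, and bars are standard errors from the fit of the day. With Activin A plus Wnt3a at day 5, miR-181b stood at -2.28 and miR-181c at 2.01.

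At day 1 the miR-181b values followed the slide as well as the treatment. Control arrays read 50.9, 66.4 and 69.0, and the first and second Activin A arrays read 65.1 and 41.7, all on slide 1. The last Activin A array, the Wnt3a arrays and the arrays with both factors were on slide 3, where miR-181b was undetected except on Wnt3a array 2, at 12.9. The pooled normalized difference from control was -4.85 (SE 1.51) with Wnt3a, -2.21 (SE 1.51) with Activin A and -6.02 (SE 1.51) with both factors, where no array was detected. On the brighter probe both factors differed from control by -2.36, or 5.12-fold, and by the column names of the authors' processed table, in which the groups with Activin A alone and with both factors were exchanged, the difference was -2.32. Within slide 1, Activin A differed from control by -0.31. Within slide 3, Wnt3a differed from Activin A by 1.17 and both factors by 0 on the totals, and by -0.23 and -0.38 on the brighter probe. At day 1 slide and treatment therefore cannot be told apart for Wnt3a and for both factors. A day 3 control array on slide 3 read 44.1, close to 49.1 and 48.7 on slide 2.

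**Figure D3:**
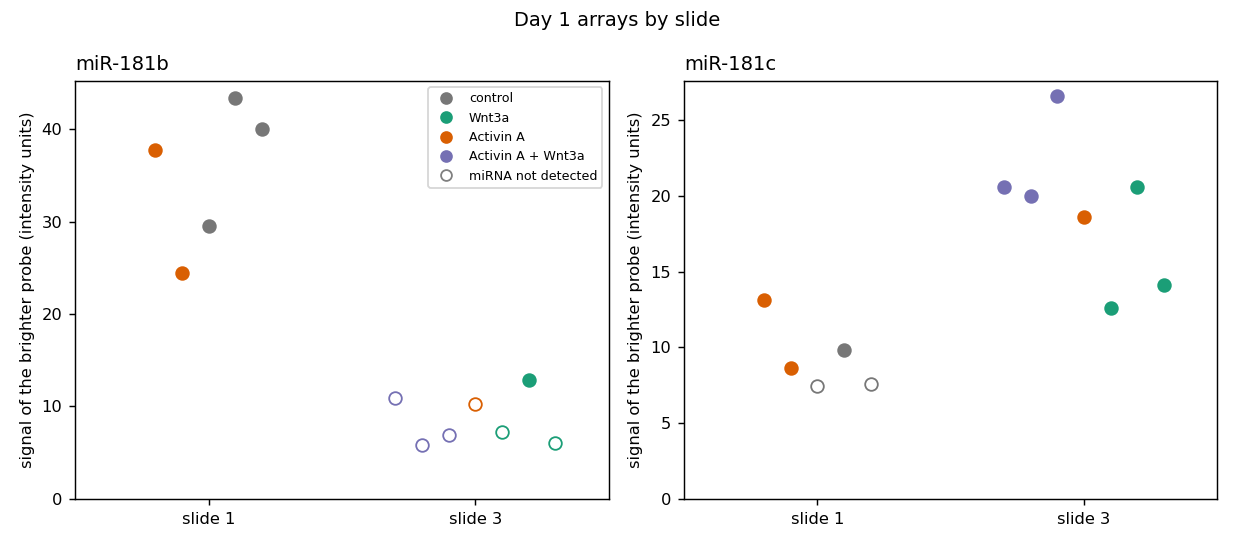
Signal of the brighter probe (vertical axis, intensity units) of miR-181b and miR-181c on each day 1 array, placed by slide (horizontal axis) and coloured by group; points are arrays and open points those with an undetected total. For miR-181b the Activin A array on slide 3 sits with the other slide 3 arrays at 10.3, below 37.7 and 24.4 on slide 1.

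For later days the slides left some comparisons open to a check. At day 3, control arrays 2 and 3 and the Activin A arrays shared slide 2, and there the normalized difference was -3.86 for miR-181b on the totals and -1.95 on the brighter probe. At day 5, the controls and Activin A arrays 1 and 2 shared slide 5, where the differences were -3.48 for miR-181a, -2.11 for miR-181b, 1.40 for miR-181c and 0.21 for miR-181d. No array with both factors shared a slide with a control of its day. Nor did any Wnt3a array of day 5. These day 5 groups were on slide 4, linked to the controls on slide 5 only through Activin A, with 1 array on slide 4. The day 3 arrays with both factors and all day 5 arrays were scanned in session 1, and all other arrays in session 2. At day 3 the treatment with both factors therefore cannot be told apart from slide and scan session. Nor can the change in controls from day 3 to day 5 be told apart from scan session. On slide 4, both factors differed from the single Activin A array there by -0.53 for miR-181b and 0.42 for miR-181c. Wnt3a differed from it by 4.30 for miR-181a, 1.68 for miR-181b, -0.33 for miR-181c and -0.12 for miR-181d.

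miR-181c went the other way from miR-181a and miR-181b at days 3 and 5: it was higher with Activin A and, by the scanner files' labels, had its highest mean of each of these days with both factors. Its signals were dim throughout, between 8.61 and 41.5 where detected. ESC arrays read 15.8, 13.4 and 24.3. At day 3 all control and Wnt3a arrays were undetected. Activin A arrays read 8.81, undetected and 12.6 at that time. With both factors they read 13.3, 18.2 and 23.0, above all other day 3 arrays. Set against the lowest detected signal of each control array, the normalized level with both factors was 2.38-fold that of day 3 controls. Against the floor the difference was 2.66 (SE 0.51). With Activin A alone the level was 1.09-fold set against the same lowest signals, 2 of 3 arrays being detected.

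At day 5 miR-181c was detected on every array. Controls read 9.15, 9.03 and 8.70. Wnt3a arrays read 19.8, 38.2 and 24.1, Activin A arrays read 28.1, 25.1 and 24.5, and arrays with both factors read 36.7, 29.9 and 28.1. Controls were below all treated arrays, and the Wnt3a arrays spanned those of both other treated groups on the raw scale. The normalized level was 2.22 ± 0.18 (SD, n = 3) in controls, 3.48 ± 0.26 for Wnt3a, 3.68 ± 0.12 for Activin A and 4.22 ± 0.07 for the combination. The difference from control was 1.26 for Wnt3a, 1.47 for Activin A and 2.01 for the combination, each with SE 0.14. Wnt3a and combination arrays were on another slide than the controls. Both factors against Activin A gave 0.54 (SE 0.14), or 1.46-fold, and the normalized arrays did not overlap. At day 3 that difference was 1.13 (SE 0.51), with 2 of 3 Activin A arrays detected. Without Activin A array 2, the undetected one, it was 0.36. On the brighter probe it was 0.19 at day 3, with overlapping arrays, and 0.55 at day 5, without overlap. The direction at both days rests on the scanner files' labels. In the authors' processed table the columns of these groups were exchanged, and by its column names the differences were -0.67 at day 5 and -1.07 at day 3. Which assignment is right was not settled from the files.

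The number of probes counted differed between these groups. For miR-181c neither probe was counted on 9 arrays, 1 on 14 and both on 16. The brighter probe read 3.58 to 7.66 where neither was counted, 8.61 to 18.6 where 1 was and 9.56 to 26.6 where both were, so arrays with like probe signals had totals of different make. All 3 day 5 controls had 1 probe counted, and all treated arrays of that day had both. On the brighter probe alone, both factors differed from control by 1.22 at day 5, or 2.33-fold against 4.02-fold for the totals, and by 1.31 at day 3. Activin A differed by 0.67 at day 5, or 1.59-fold, and Wnt3a by 0.58, or 1.5-fold. The day 5 groups kept apart from control on this probe, where controls read 9.15, 9.03 and 8.70 and the treated arrays 11.6 to 24.5.

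**Figure D4:**
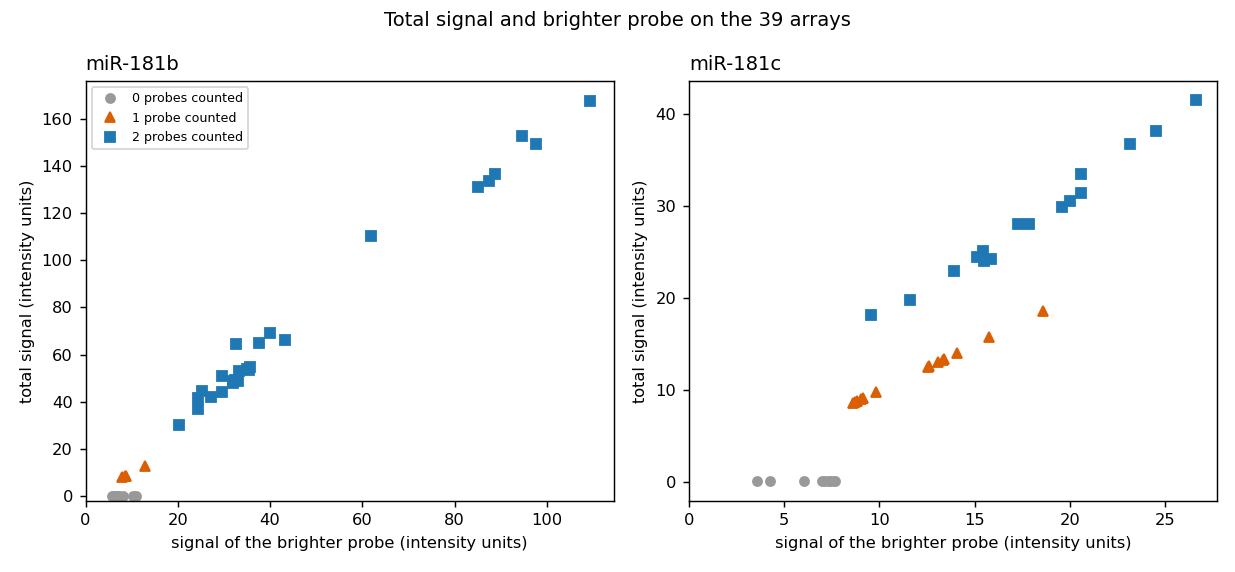
Total signal (vertical axis, intensity units) against the signal of the brighter probe (horizontal axis, intensity units) for miR-181b and miR-181c; points are the 39 arrays, with shape and colour for 0, 1 or 2 probes counted. For miR-181c the 14 arrays with 1 probe counted form a line below the 16 with both, and their brighter probes overlap from 9.56 to 18.6.

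At day 1 the miR-181c control arrays read undetected, 9.81 and undetected. Wnt3a arrays read 12.6, 31.5 and 14.1, Activin A arrays 13.1, 8.61 and 18.6, and arrays with both factors 33.5, 30.6 and 41.5. Arrays with both factors lay above all others of the day except Wnt3a array 2, which fell between them. Normalized differences from control were 3.07, 2.94 and 3.75 (SE 0.81) in that order, with 1 of 3 control arrays detected. On the brighter probe they were 0.56, 0.46 and 0.99. Within slide 1, Activin A differed from control by 2.73 on the totals and 0.30 on the brighter probe. Within slide 3, both factors differed from Activin A by 0.39 and 0.23. In untreated cells miR-181c fell from ESCs to day 1 by 3.28 (SE 0.56) on the totals, or by 0.70 on the brighter probe.

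The ESC markers of the miR-290 cluster, 7 miRNAs, followed a like order at day 5. Their summed normalized signal was 7857 to 8568 in controls, 10965 to 14250 with Wnt3a, 26317 to 29263 with Activin A and 31715 to 33756 with both factors, against 35192 to 35717 in ESCs. All 7 were detected on every array of these day 5 groups, and the order of the Activin A groups rests on the scanner files' labels. Earlier days ran otherwise. Day 1 controls summed to 35136 to 35292, with miR-181c detected on 1 of 3 of them. Sums at day 3 were 18066 to 19273 in controls and 24808 to 25623 with Wnt3a, with miR-181c undetected in both. They were 35032 to 35059 with Activin A and 34059 to 35260 with both factors. The part of these markers in the miR-181c values was not tested.

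miR-181d, the chromosome 8 neighbour of miR-181c, had both probes counted on every array. ESCs read 154, 117 and 101. Day 1 controls read 68.5, 78.8 and 92.4, day 3 controls 30.1, 34.8 and 29.7, and day 5 controls 52.3, 48.7 and 53.3. Among the differences computed for it, the largest was in time and not between treatments. In untreated cells the normalized level was 7.98 ± 0.30 (SD, n = 3) in ESCs, 7.42 ± 0.16 at day 1, 4.88 ± 0.17 at day 3 and 5.18 ± 0.02 at day 5. From day 1 to day 3 it dropped by 2.54 (SE 0.20), 5.81-fold, with no overlap. Every day 1 group lay above every group of days 3 and 5 on this scale, by mean.

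Treated cells followed with smaller differences. At day 3 Wnt3a arrays read 43.5, 42.9 and 37.3, Activin A arrays 45.5, 38.8 and 42.1, and arrays with both factors 54.9, 54.7 and 57.7. At day 5 they read 67.4, 88.6 and 70.4, then 74.0, 63.4 and 74.4, then 91.1, 76.4 and 62.1. Both factors differed from control by 0.60 (SE 0.16) at day 3 and 0.62 (SE 0.26) at day 5, or 1.52-fold and 1.53-fold, without overlap. Activin A differed by 0.35 (SE 0.16) and 0.31 (SE 0.26), with overlap at day 3. At day 1 Wnt3a arrays read 65.2, 90.9 and 70.0, with a normalized difference of -0.54 (SE 0.12) that the raw totals, which overlapped those of control, did not show. Arrays with Activin A read 118, 77.4 and 84.7 and with both factors 108, 92.4 and 120.1, and differed from control by 0.01 and 0.04 (SE 0.12).

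Fibroblast miRNAs fell at the same time as miR-181d. The 5 markers listed for feeder cells summed to 383 to 461 in normalized signal in ESCs and 851 to 946 on day 1 arrays, and to at most 66.9 on any later array. miR-143, miR-145, miR-199a-5p and miR-214 were undetected on all arrays of every day 3 group, and miR-145 also at day 1. Their part in the miR-181d values was not tested.

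Across the family, 3 of 4 main strands (miR-181b lower, miR-181c and miR-181d higher) did not overlap between both factors and control at day 3, beside 60.1% of the 326 miRNAs tested. At day 5 all 4 did not overlap, for both factors and for Activin A alone, beside 73.4% of 368 in each case. The members were chosen with these values known, and nothing is read from these counts. Ordered by mean normalized level, miR-181a stood highest in Wnt3a and control cells of day 5, which overlapped, and the next group was 2.91 lower on the log2 scale. miR-181b was highest in ESCs and day 1 controls, which overlapped, followed by control and Wnt3a cells of day 5. On the totals these day 5 arrays lay above those of ESCs and day 1 controls. miR-181c was highest with both factors at day 1, without overlap with ESCs next in order. That rank, too, rests on the scanner files' labels: in the authors' table the difference of both factors from control at day 1 was 4.0 with columns matched to arrays and 2.98 by column name. miR-181d was highest in ESCs, without overlap with the next group.

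The miRNAs whose group means ran most like those of each member were found among 316 miRNAs detected on at least 12 arrays, by Pearson's r over the 13 group means. These r describe points that share arrays and normalization. For miR-181a they were miR-30a* (0.97), miR-93 (0.96) and miR-130b (0.92). For miR-181b they were miR-718 (0.77), miR-697 (0.62) and miR-1895 (0.61), although by Spearman's rho over the same means miR-718 reached 0.89, beside 0.88 for the first miRNA of miR-181c and of miR-181d. For miR-181c they were miR-706 (0.86), miR-24 (0.77) and miR-290-5p (0.76), the last from the ESC cluster. For miR-181d they were miR-199a-5p, let-7i and miR-214, each at 0.95, of which miR-199a-5p and miR-214 are on the fibroblast list. Between members, r was 0.49 for miR-181a with miR-181b, 0.73 for miR-181c with miR-181d and -0.36 for miR-181b with miR-181c. Over the 24 arrays of days 3 and 5 alone, r was 0.73, 0.70 and -0.20 in the same order. The 13 means include day 1, where miR-181b followed the slide as well as the treatment. There miR-718 stood at 4.74 in controls, 2.31 with Activin A, and 1 with Wnt3a and with both factors.

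**Figure D5:**
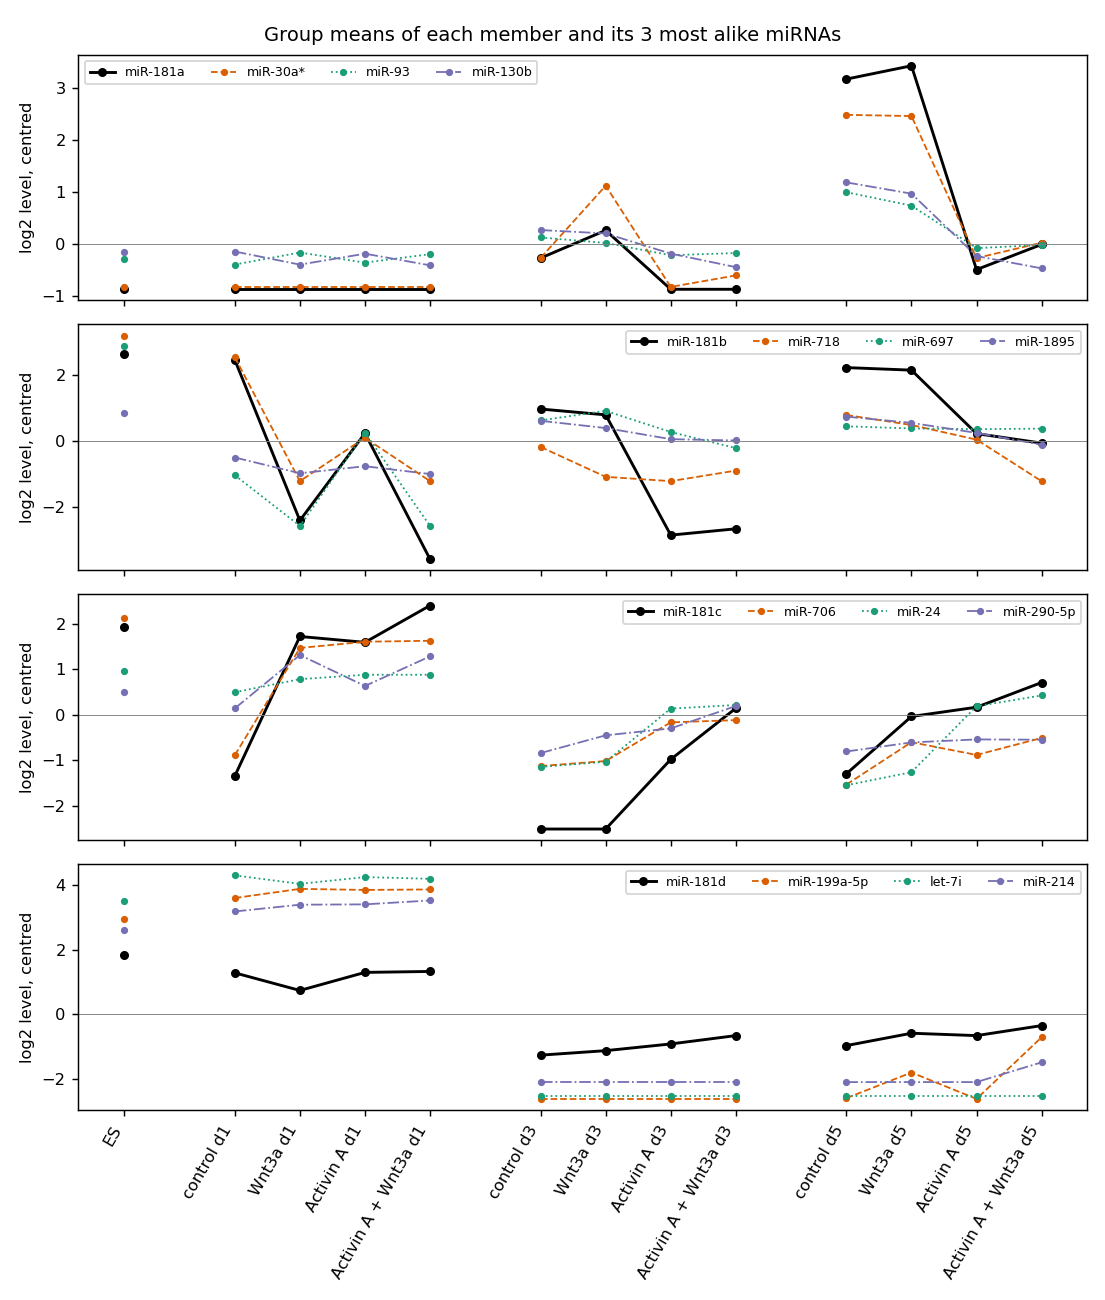
Group mean of the normalized log2 level, centred on its mean over the 13 groups (vertical axis), for each member and the 3 miRNAs with the highest Pearson's r (lines), against group (horizontal axis). For miR-181d the 3 lines have r of 0.95, and for miR-181b the highest r is 0.77.

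The star strands are rows of their own on the array, of which 2 belong to the family. They are printed to show that their seeds differ from the main strands' and from each other's.
mmu-miR-181a-1*: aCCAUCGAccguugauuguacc
mmu-miR-181a-2*: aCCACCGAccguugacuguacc
miR-181a-2* was undetected on all 39 arrays. miR-181a-1* was detected on 2, both of them Wnt3a arrays of day 5, at 21.98 and 6.39. That is the group in which miR-181a itself had its highest normalized mean. In limma's test of the day, with Benjamini-Hochberg adjustment over all 368 miRNAs tested, the difference from control was 0.45 (SE 0.30) on the log2 scale with an adjusted p of 0.395, and no change was called. It entered the test only through the Wnt3a arrays, and the value came from Wnt3a array 2, without which it was 0. By its brighter probe the direction turned, to -0.16, since day 5 controls read 5.88 to 6.99 there without being counted and Wnt3a arrays 3.87 to 11.6.

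The study over-expressed miR-181c in a pool with miR-338-5p, miR-222, miR-196a, miR-196b and let-7e. These 5 were chosen by the study on these samples, so their counts and p-values are not independent evidence of direction. A call needed an adjusted p under 0.05 in limma and over 2-fold. At day 3 let-7e was the one detected on 2 control arrays, and the others passed the filter only through treated groups, as did miR-196a and miR-196b at day 5. Their calls are therefore given as a description, without p, and support nothing. Lower bounds hold for the total signals and take an undetected total as no higher than the lowest detected one of its array. That was not tested. At day 1, 3 of 5 were tested and 0 were called under Activin A, Wnt3a or their combination (0 at an unadjusted p under 0.05 in each), where 0%, 2.92% and 3.75% of the 240 miRNAs tested were called higher. The 0% for Activin A stands beside 40 miRNAs of 240 at an unadjusted p under 0.05 in limma.

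At day 3 most of the pool was higher with Activin A. With both factors 4 of 5 were higher, beside 12.9% of 326 miRNAs. miR-222, which targets the cell cycle inhibitor p27, differed by 2.89 (SE 0.43) on the log2 scale, from 1 of 3 control arrays detected to 3 of 3. let-7e was higher than in control by 2.68 (SE 0.49, adjusted p = 0.000951 in limma), but it had fallen in both groups. Its normalized level went from 7.83 at day 1 to 2.41 at day 3 in controls, and from 7.92 to 5.09 with both factors. miR-338-5p differed by 2.01 (SE 0.35) and miR-196b, encoded in a Hox cluster, by 2.35 (SE 0.45), or at least 1.92-fold. miR-196a gave 0.33 (SE 0.22) and was not called. With Activin A alone the same 4 were higher, beside 12.6%. With Wnt3a 1 of 5, miR-196b, was higher, beside 3.07%. The pool's median difference with both factors was 2.35, against -0.03 over all miRNAs tested.

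At day 5 the calls were of miR-196a, miR-196b and let-7e. The miR-196 pair was undetected on all day 5 control arrays, whose lowest detected signal stood at the floor of 2. The folds here are therefore against that floor. They are lower bounds only if an undetected total lies no higher than the lowest detected one of its array, which was not tested. With both factors miR-196b stood 27.1-fold and miR-196a 14.1-fold above the floor. With Activin A alone the folds were 8.08 and 2.48. let-7e was higher than in control by 2.34 with both factors (SE 0.59, adjusted p = 0.00979) and by 1.77 with Activin A (adjusted p = 0.0417). So 3 of 5 were higher in each of these comparisons, beside 15.5% and 13.6% of 368 miRNAs, and 0 of 5 with Wnt3a, beside 2.72% (limma, with 1 of 5 at an unadjusted p under 0.05). Which of the Activin A groups had which values rests on the scanner files' labels. By the column names of the authors' table, where these groups were exchanged, 4 of 5 were called with both factors. miR-222 gave 0.42 (adjusted p = 0.518) and miR-338-5p -0.08 (adjusted p = 0.967) with both factors. The median difference of the pool at day 5 with both factors was 2.34, against 0 over all miRNAs tested, while miR-181c stood at 2.01. These comparisons share their control arrays.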

How the data were processed

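RNA from 39 samples was hybridised to 1-colour Agilent mouse miRNA arrays. The authors deposited scanner files, whose total signals per miRNA are intensity values already background-corrected by Agilent Feature Extraction (version 9.5.3.1 per the labels, 10.7.3.1 per the file headers), with a detection flag (0 or 1, a score-like value) and probe signals, and a table of log2 values deposited by the authors after quantile normalization. In those log2 values, 18 of 39 columns held the rank order of another array, the Activin A and combination groups being exchanged, so the scanner files and their labels were used; which assignment is right was not settled from the files.

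Total signals were quantile normalized over all arrays, floored at 2 and taken to log2 (R 4.3.3, limma 3.58.1, statmod 1.5.0). A miRNA was tested where detected on at least 2 of 3 arrays of a group, by lmFit and eBayes on the 12 arrays of the day, and called at an adjusted p under 0.05 and over 2-fold. Scripts were tested on simulated data. Named miRNAs were the members, their star strands, the study's pool and the 3 miRNAs most like each member. Members, lists and tests were chosen with earlier results of these data known. A lower bound sets the brighter group's mean against the lowest detected signal, after the floor, of each undetected array. Replicate numbers did not pair the samples. Alternatives covered the normalization, background correction, floor, undetected arrays, filter, slide, replicate block, the authors' log2 table and left-out arrays. Sums over both probes, the brighter probe alone and single slides were added after seeing the data.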

Additional observations from a re-analysis of the deposited data

How the results depend on the processing

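For Activin A plus Wnt3a against control, the members kept their direction in every alternative run, and leaving out 1 array at a time gave ranges, at day 3, of -3.93 to -3.16 for miR-181b and 2.58 to 2.79 for miR-181c and, at day 5, of -2.37 to -2.16 for miR-181b, -3.42 to -2.75 for miR-181a and 1.93 to 2.11 for miR-181c; miR-181a-1* gave 0 (without Wnt3a array 2 of day 5) to 0.67 and the pool counts stayed at 4 and 3. The sizes moved. In what follows values are log2 differences for both factors, and the cause of each shift was not tested. Scaling to the 75th percentile of all miRNAs gave -1.88 (miR-181b) and 1.75 (miR-181c) at day 5, and over miRNAs detected on all arrays -2.12 and 1.52. Quantiles within a day gave -1.95 and 1.67, and 2.90 for miR-181c at day 3. Quantiles of log2 signals gave -4.31 and 0.45 at day 3 and -3.24 and 1.56 at day 5, with 2 pool miRNAs called at day 3. Normexp gave -0.30 and 0.11 at day 3, -0.54, 0.13 and -0.23 (miR-181a) at day 5, 0 and 0 pool calls, and turned miR-181a-1* to -0.0049. A floor before normalization gave 1.78 for miR-181c at day 5, and a floor of 1 gave 3.66 at day 3. A floor of 8 gave -2.53 and 0.66 at day 3, 1.22 and -2.04 (miR-181a) at day 5 and 2 pool calls at day 3. With undetected values left out, 1 pool miRNA was called at day 5.

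The authors' log2 table as named gave -4.49 and 1.45 at day 3 and 1.11 and -3.92 (miR-181a) at day 5, and turned miR-181c in both factors against Activin A to -1.07 at day 3 and -0.67 at day 5; with columns matched to arrays it gave -2.79 and 1.78 at day 5. Both probes summed gave -2.44 and 1.74 at day 3 and -2.08, 1.34 and -2.49 (miR-181a) at day 5. The brighter probe gave -2.18 and 1.31, then -2.07, 1.22 and -2.10, and turned miR-181a-1* to -0.16. Slide as a fixed block gave -2.64, 1.82 and -2.61 at day 5, moved miR-181b with both factors at day 1 from -6.02 to -0.31 and turned miR-181b with Wnt3a at day 1 from -4.85 to 0.86.

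With the replicate number as a block, member differences were the same (-3.62 and 2.66 at day 3, -2.28, 2.01 and -3.18 at day 5). miR-181a-1* had an adjusted p of 0.402 in limma, and the pool counts were 4 and 3. Counts over all miRNAs changed in some comparisons, as from 14 to 12 called with Wnt3a at day 5. They stayed at 66 and 112 with both factors against control at days 3 and 5. Over its alternatives the adjusted p of miR-181a-1* ran from 0.036 (slide as a random block) and 0.0632 (1 fit of all 39 arrays) to 1, against 0.395, always under 2-fold where p was under 0.05. The numbers did not pair the samples, since same-number correlations ran from -0.61 to 0.40. Slide as a fixed block could not be fitted for both factors at day 3, quantiles within a day not for changes over time, and leaving out undetected values not where a group had none detected. A filter asking for all 3 arrays left miR-181a-1* untested. Many miR-181a and miR-181c signals lay near the detection limit.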
